A study of Mus musculus with 8 samples.

Results

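The genes described here are 9 members of the phosphoinositide 3-kinase (PI3K) and AKT pathway, followed through RNA sequencing of resting (rTreg) and activated (aTreg) regulatory T cells with or without Foxp1. They were chosen by name from the 27594 genes listed, with earlier results of these data known. Counts among the 9 genes, set beside shares of all genes tested, therefore describe this choice and do not test it. All 9 were found and passed the filter on low counts that kept 14540 genes for testing. Spleens and peripheral lymph nodes of C57BL/6 mice aged 6 to 8 weeks were the source of the cells. WT mice carried Foxp3-YFP-Cre, and Foxp1-deficient mice (labelled Foxp1 cKO) carried Foxp1fl/fl together with Foxp3-YFP-Cre. All groups therefore shared the Cre allele, which is driven from the Foxp3 locus, so that YFP marks cells that express Foxp3, while recombination persists in cells that have expressed it. CD4+YFP+ cells were sorted as CD44-low rTreg cells or CD44-high aTreg cells, with a further surface marker in the gate. There were 2 libraries in each of the 4 groups, which are rTreg and aTreg cells of either genotype, and the labels name no treatment. The labels do not say how many mice stand behind a library. Replicates of a group differed in Xist, given with the depths, so they were not repeats of the same mouse. In the main fit, p-values measure the spread left between these libraries after a shared difference between replicate numbers is taken out.

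Class I PI3K enzymes phosphorylate the membrane lipid PI(4,5)P2 to PIP3 after antigen receptor, co-stimulatory or cytokine signals. PIP3 recruits AKT kinases to the membrane, where they are phosphorylated and in turn inactivate substrates such as the FOXO transcription factors. Lipid phosphatases remove phosphates from PIP3 or PI(3,4)P2, and PHLPP phosphatases act on AKT itself, which makes Phlpp1 a protein phosphatase rather than a lipid phosphatase. In T cells this pathway drives growth and exit from quiescence, and Treg cells are known for low AKT activity after stimulation.

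Counts per library ranged from 6373170 (Foxp1-deficient rTreg, replicate 1) to 15268623 (WT aTreg, replicate 2). Each member had at least 523 counts in every library, so none was near the floor of 3 counts, which lay between 0.192 and 0.478 CPM (counts scaled to the TMM-normalized library size). Foxp1 itself had 354 and 384 CPM in WT rTreg cells and 342 and 338 CPM in Foxp1-deficient rTreg cells, so the count over the whole gene did not check the genotype labels of the rTreg libraries. In aTreg cells it had 234.5 and 230.3 CPM in WT and 126 and 102 CPM in Foxp1-deficient cells. The paper reports complete deletion of Foxp1 in Treg cells of Foxp1-deficient mice, not split by subset. Its evidence was immunoblot, mRNA level and intracellular staining. The Treg markers Foxp3, Il2ra, Ctla4 and Ikzf2 and the T cell genes Cd4 and Cd3e had at least 1324 counts in every library. Their levels were not all equal between genotypes. In Foxp1-deficient against WT rTreg cells the log2 fold change was -0.885 for Ctla4, -0.468 for Ikzf2, -0.315 for Foxp3 and -0.062 for Il2ra. It was 0.538 for Cd4 and 0.291 for Cd3e. Cd44, a marker used in the sort, followed the gate, at 40.2 CPM in WT rTreg and 213 CPM in WT aTreg cells. The summed level of 7 myeloid markers was 0.786 to 1.93 CPM in WT rTreg, 5.99 to 16.3 CPM in Foxp1-deficient rTreg, 4.23 to 5.38 CPM in WT aTreg and 4.46 to 28.4 CPM in Foxp1-deficient aTreg cells. The summed level of 5 B cell markers was 172 to 249 CPM over the rTreg libraries and 623 to 792 CPM over the aTreg libraries, carried mainly by Ighm, while Ms4a1, which encodes CD20, had at most 4 counts in any library. Replicate 1 and replicate 2 libraries also differed in sex, with at most 3 Xist counts in each replicate 1 library and at least 15098 in each replicate 2 library. In bulk samples like these, fewer cells that express a gene and less RNA per cell cannot be told apart.

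Of the 9 genes, Phlpp1, Inpp4b and Pik3ip1 changed past the thresholds in at least 1 comparison, and their promoter windows are shown because these are the genes on which the results turn. Phlpp1 (ENSMUSG00000044340) lies on chromosome 1 from 106171752 to 106394250, Inpp4b (ENSMUSG00000037940) on chromosome 8 from 81342556 to 82127914, and Pik3ip1 (ENSMUSG00000034614) on chromosome 11 from 3330401 to 3342971, all on the plus strand of GRCm38 and annotated as protein coding in GENCODE M21. Each window below is from RefSeq on GRCm38.p6, runs 5′ to 3′ along the plus strand and covers 250 bases before and 50 bases from an annotated start, namely chr1:106171619-106171918 for Phlpp1, chr8:81342312-81342611 for Inpp4b and chr11:3330481-3330780 for Pik3ip1. The GENCODE start of Pik3ip1, at 3330401, lies before its window, so the bases around that start are not shown. Capitals mark matches on either strand to the GC box GGGCGGG or the forkhead-type letters TGTTTNC.
Phlpp1: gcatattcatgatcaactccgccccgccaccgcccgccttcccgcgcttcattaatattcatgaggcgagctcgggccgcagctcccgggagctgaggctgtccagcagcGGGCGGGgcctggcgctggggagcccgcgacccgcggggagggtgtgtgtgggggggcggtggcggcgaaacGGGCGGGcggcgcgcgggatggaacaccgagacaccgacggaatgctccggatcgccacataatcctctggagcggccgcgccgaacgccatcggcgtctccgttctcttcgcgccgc
Inpp4b: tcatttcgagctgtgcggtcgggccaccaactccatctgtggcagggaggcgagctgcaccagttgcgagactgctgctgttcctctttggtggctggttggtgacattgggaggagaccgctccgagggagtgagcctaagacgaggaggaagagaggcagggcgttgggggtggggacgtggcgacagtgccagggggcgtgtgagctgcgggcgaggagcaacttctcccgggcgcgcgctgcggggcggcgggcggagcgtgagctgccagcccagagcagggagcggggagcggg
Pik3ip1: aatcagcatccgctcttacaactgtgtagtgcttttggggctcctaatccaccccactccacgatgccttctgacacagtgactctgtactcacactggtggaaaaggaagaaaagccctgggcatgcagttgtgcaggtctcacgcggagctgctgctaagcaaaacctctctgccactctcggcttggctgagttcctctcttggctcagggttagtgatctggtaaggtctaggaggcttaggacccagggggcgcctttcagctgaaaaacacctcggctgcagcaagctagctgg

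The Phlpp1 window held 2 GC boxes, and neither of the other windows held one. Over all 32851 promoter windows in the table, 25.6% held GGGCGGG, 20.5% held TGTTTNC and 3.65% held TGTTTAC, a forkhead motif that is contained in TGTTTNC. None of the windows shown held TGTTTNC, which says only that these letters are not in these 300 bases. All 9 genes matched the table, with 17 windows between them, of which 7 windows of 4 genes (Pik3cd, Pik3cg, Akt1 and Akt2) held TGTTTNC and 2 windows, of Pik3cg and Akt1, held TGTTTAC. The windows of Phlpp1 and Inpp4b were rich in G and C (70.7% and 68.3%, with 42 and 25 CpG dinucleotides), whereas that of Pik3ip1 was close to the median of all windows (54.7% against 52.7%, with 7 CpG dinucleotides each).

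To compare genes with each other, the deposited FPKM values, which divide counts by gene length and library total, were used. Pik3cd, the p110δ catalytic subunit that predominates in lymphocytes, was the highest of the 9 genes in all 8 libraries, from 103 to 192 FPKM. Its relative Pik3cg, the p110γ catalytic subunit that couples to G protein-coupled receptors, stayed between 8.64 and 11.0 FPKM, so that Pik3cd exceeded it 20.8- to 20.9-fold in WT rTreg, 17.2- to 18.8-fold in Foxp1-deficient rTreg, 13.0- to 13.8-fold in WT aTreg and 9.86- to 10.4-fold in Foxp1-deficient aTreg cells. Akt1 was above Akt2 in FPKM in every library, by 1.36- to 1.80-fold. Phlpp1 was the lowest of the 9 genes in both WT rTreg libraries, at 8.34 and 7.73 FPKM, and reached 34.9 and 35.2 FPKM in Foxp1-deficient rTreg cells, where it stood above Pik3cg and Pik3r1.

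**Figure D1:**
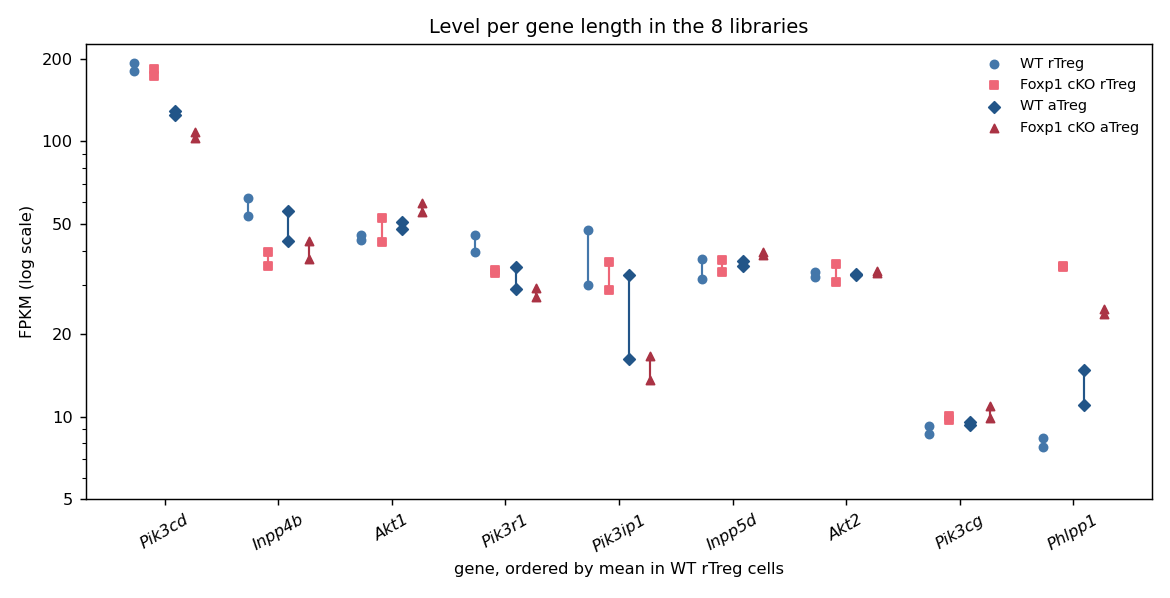
FPKM of the 9 genes in each library on a log axis, with genes ordered by their mean in WT rTreg cells, points for single libraries and lines joining the 2 libraries of a group. Pik3cd lies highest throughout (103 to 192 FPKM), and Phlpp1 moves from 7.73 and 8.34 FPKM in WT rTreg to 34.9 and 35.2 FPKM in Foxp1-deficient rTreg cells.

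The first comparison asked which of these genes depend on Foxp1 in rTreg cells. A gene was called when its adjusted p-value was under 0.05 and its change at least 1.5-fold, or 2-fold between subsets, in edgeR's quasi-likelihood test with replicate number as a blocking factor. Phlpp1 rose and Inpp4b fell in Foxp1-deficient rTreg cells, and the other 7 genes were not called. This is 2 of 9 genes, where 5.60% of all genes tested were called (2.90% higher and 2.70% lower). By the adjusted p-value alone 3 of the 9 genes passed, as did 12.0% of all genes tested. The median log2 fold change of the 9 genes was 0.05, against 0.003 over all genes tested, and the libraries of the genotypes did not overlap for 4 of the 9 genes, a pattern that 45.2% of all genes tested showed.

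Phlpp1 encodes a phosphatase that dephosphorylates AKT and thereby restrains it. Its level was 55.9 and 53.6 CPM in the WT rTreg libraries and 239 and 247 CPM in the Foxp1-deficient ones. Both Foxp1-deficient libraries lay far above both WT libraries, and replicates within a genotype were close to each other. Group means were 54.7 ± 1.65 CPM for WT and 243 ± 5.42 CPM for Foxp1 loss (SD, n = 2 each), a 4.45-fold increase (log2 fold change 2.15, standard error 0.114, 95% interval 1.89 to 2.42, adjusted p = 8.59e-05 from edgeR with Benjamini-Hochberg adjustment). The change was 2.10 in replicate pair 1 and 2.21 in replicate pair 2 on the log2 scale. By p-value Phlpp1 ranked 15 of 14540 genes, and it was called in all 15 alternative settings, with log2 fold changes from 2.05 to 2.24. The summed level of the 7 myeloid markers was higher in Foxp1-deficient than in WT rTreg libraries, at most 16.3 CPM. Their part in this result was not tested.

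Inpp4b encodes the phosphatase that removes the 4-phosphate from PI(3,4)P2, the lipid that SHIP enzymes make from PIP3. In WT rTreg cells its level was 697 and 837 CPM, and in Foxp1-deficient rTreg cells it was 466 and 538 CPM. Both Foxp1-deficient libraries were below both WT libraries, and replicate 2 was above replicate 1 in both genotypes. Inpp4b fell by 0.61 on the log2 scale (1.52-fold lower, standard error 0.0545, adjusted p = 9.78e-04 from edgeR with Benjamini-Hochberg adjustment), with -0.58 and -0.64 in replicate pairs 1 and 2. The change is close to the 1.5-fold threshold, and its call was lost without replicate 2 of Foxp1-deficient rTreg cells, where the log2 fold change was -0.56. When the block was dropped the size stayed at -0.61, with an adjusted p of 0.131 (edgeR with Benjamini-Hochberg adjustment; 3.36e-18 to 0.131 over the 15 alternatives).

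Pik3r1 encodes p85α, the regulatory subunit that stabilizes the p110 subunits and holds them inactive until they are recruited. It had 395 and 473 CPM in WT rTreg and 342 and 357 CPM in Foxp1-deficient rTreg cells, with no overlap between genotypes. Its log2 fold change of -0.31 (standard error 0.0658) passed the adjusted p-value, at 0.0243 in edgeR with Benjamini-Hochberg adjustment, but not the 1.5-fold threshold, and the adjusted p was 0.287 when the replicate block was left out (6.26e-04 to 0.287 over the alternatives). For Pik3ip1, which encodes a membrane protein that binds p110 and inhibits PI3K, the WT rTreg libraries had 128 and 209 CPM and the Foxp1-deficient ones 125 and 162 CPM. The replicates of each genotype differed by more than the genotypes did, and the libraries overlapped. The log2 fold change was -0.21, with a 95% interval from -0.55 to 0.14 (adjusted p = 0.406, edgeR with Benjamini-Hochberg adjustment), and was -0.04 in replicate pair 1 and -0.37 in replicate pair 2.

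The remaining genes had small differences between genotypes in rTreg cells. Pik3cd had 1196 and 1156 CPM in WT and 1163 and 1124 CPM in Foxp1-deficient rTreg cells, a log2 fold change of -0.04 with a 95% interval from -0.15 to 0.07. Pik3cg had 77.0 and 74.7 CPM in WT and 83.4 and 87.7 CPM in Foxp1-deficient cells, which did not overlap, but its log2 fold change of 0.18 had an adjusted p of 0.119 (edgeR with Benjamini-Hochberg adjustment). Inpp5d, which encodes SHIP1, the phosphatase that converts PIP3 to PI(3,4)P2 in blood cells, was at 239 and 291 CPM against 259 and 292 CPM, and its 95% interval ran from -0.09 to 0.21. Akt1 had 185 and 184 CPM in WT and 220 and 183 CPM in Foxp1-deficient cells, and Akt2 had 238 and 235 against 260 and 229 CPM. The intervals of these kinases were -0.05 to 0.29 for Akt1 and -0.12 to 0.21 for Akt2. With the replicate block, a 1.5-fold change in rTreg cells lay outside the intervals of Pik3cd, Pik3cg, Pik3r1, Pik3ip1, Inpp5d, Akt1 and Akt2. For Pik3ip1 the interval reached -0.55, close to 1.5-fold lower, and none is given for the fit without the block. The paper reports lower Pik3ip1 mRNA in Foxp1-deficient rTreg cells by quantitative PCR.

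**Figure D2:**
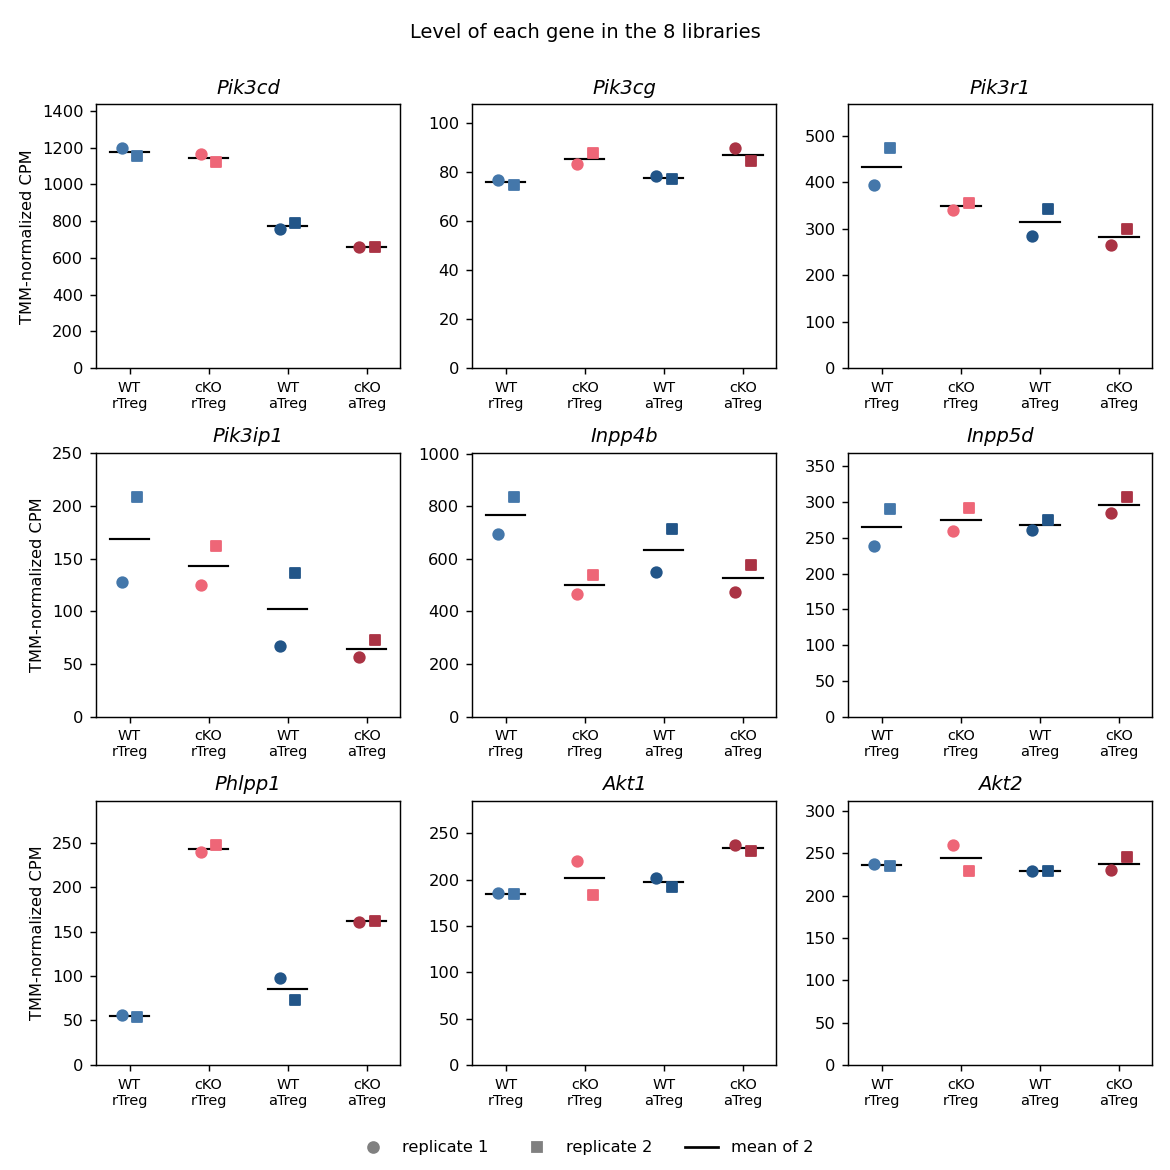
TMM-normalized CPM of each gene in the 8 libraries, with circles for replicate 1, squares for replicate 2 and a line at the mean of the 2 libraries. All axes start at 0. Phlpp1 is higher in Foxp1-deficient than in WT cells of both subsets, Pik3cd is lower in aTreg than in rTreg cells of both genotypes, and Pik3ip1 is higher in replicate 2 than in replicate 1 of each group.

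The same question was asked in aTreg cells. Phlpp1 again rose with loss of Foxp1, and none of the other 8 genes was called. This is 1 of 9 genes, against 4.03% of all genes tested (2.37% higher and 1.66% lower). Genotypes did not overlap for 6 of the 9 genes, a pattern seen in 41.8% of all genes tested. The median log2 fold change of the 9 genes was 0.05, against 0.002 over all genes.

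Phlpp1 had 97.3 and 72.8 CPM in WT aTreg and 161 and 162 CPM in Foxp1-deficient aTreg cells. The Foxp1-deficient libraries were both above the WT ones, which differed more between replicates than those of any other group. The increase was 1.91-fold (log2 fold change 0.94, standard error 0.109, adjusted p = 0.00424 from edgeR with Benjamini-Hochberg adjustment), with 0.73 and 1.15 in replicate pairs 1 and 2. The adjusted p was 0.0434 without the replicate block. It was 0.0585 without replicate 2 of Foxp1-deficient aTreg cells, where the log2 fold change was 0.86 and the call was lost (edgeR with Benjamini-Hochberg adjustment; 7.49e-10 to 0.0585 over the 15 alternatives). Myeloid markers summed to 4.23 to 5.38 CPM in WT and 4.46 to 28.4 CPM in Foxp1-deficient aTreg cells, and their part in this result was not tested.

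Pik3ip1 in aTreg cells had 67.0 and 136 CPM in WT and 56.3 and 72.4 CPM in Foxp1-deficient libraries. The groups overlapped, because WT replicate 1 was below Foxp1-deficient replicate 2, although in each replicate pair the Foxp1-deficient library was the lower one, by 0.25 and 0.92 on the log2 scale. The fitted log2 fold change was -0.61 (1.53-fold lower, standard error 0.151) with an adjusted p of 0.055 from edgeR with Benjamini-Hochberg adjustment, which missed the threshold. It was called by limma-voom (adjusted p = 0.0387), by DESeq2 (adjusted p = 0.0104), with no filter on low counts (adjusted p = 1.56e-04) and without replicate 1 of WT aTreg cells (log2 fold change -0.85, adjusted p = 0.0109), and had an adjusted p of 0.535 without the replicate block, the highest of the alternatives. Without replicate 2 of WT aTreg cells the log2 fold change was -0.32 and the adjusted p 0.306 in edgeR with Benjamini-Hochberg adjustment.

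Pik3cd and Inpp4b passed the adjusted p-value in aTreg cells but not the 1.5-fold threshold. With Phlpp1 this makes 3 of the 9 genes past the adjusted p-value, where 6.88% of all genes tested passed. Pik3cd had 758 and 788 CPM in WT and 657 and 657 CPM in Foxp1-deficient aTreg cells, a log2 fold change of -0.23 (adjusted p = 0.029). Inpp4b had 552 and 713 CPM in WT and 474 and 577 CPM in Foxp1-deficient cells, and its log2 fold change was -0.26 (adjusted p = 0.0313, edgeR with Benjamini-Hochberg adjustment in both cases). Without the replicate block these adjusted p-values were 0.247 and 0.601, the highest over the alternatives, whose lowest were 0.00219 and 0.00251. For Inpp4b the genotypes overlapped unless replicates were compared in pairs, where the difference was -0.22 and -0.31.

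Akt1 had 202 and 193 CPM in WT aTreg and 237 and 231 CPM in Foxp1-deficient aTreg cells, with no overlap between the groups. Its log2 fold change of 0.25 had an unadjusted p of 0.0107 and an adjusted p of 0.0931 in edgeR with Benjamini-Hochberg adjustment. Inpp5d, at 260 and 275 against 285 and 307 CPM, and Pik3cg, at 78.3 and 77.1 against 89.7 and 84.7 CPM, were also higher in both Foxp1-deficient libraries, by 0.15 and 0.17 on the log2 scale, but missed the threshold (adjusted p = 0.228 and 0.17, edgeR with Benjamini-Hochberg adjustment). Pik3r1 had 285 and 344 CPM in WT and 266 and 300 CPM in Foxp1-deficient cells, and Akt2 had 229 in both WT libraries against 230 and 245 CPM. Their 95% intervals were -0.30 to 0.01 and -0.11 to 0.22 on the log2 scale.

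**Figure D3:**
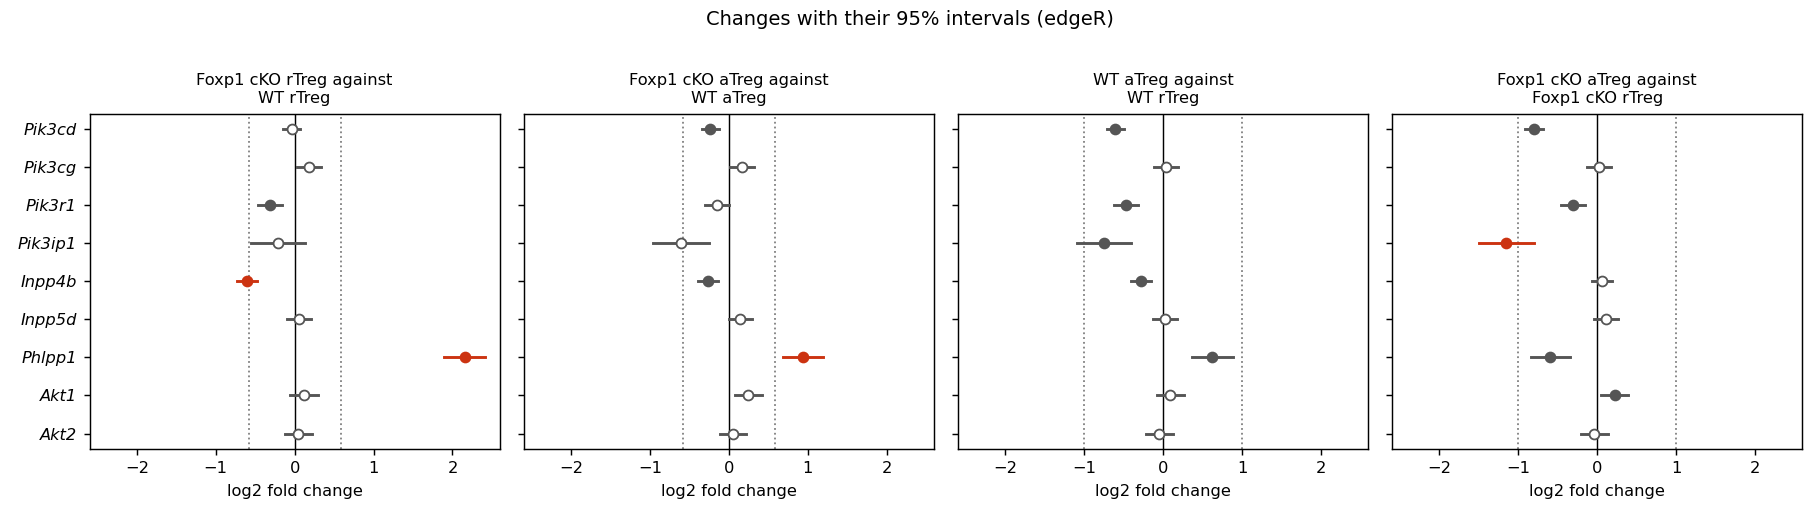
Log2 fold change of each gene in the 4 comparisons, with horizontal lines for the 95% interval of edgeR's fit. Red marks genes that passed both thresholds, filled grey points passed the adjusted p-value alone, open points passed neither, and dotted lines mark 1.5-fold between genotypes or 2-fold between subsets. Phlpp1 lies at 2.15 in rTreg and 0.94 in aTreg cells, the largest changes between genotypes among the 9 genes.

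Whether the effect of Foxp1 loss differs between subsets was tested as an interaction in the same fit. Of the 9 genes, only Phlpp1 passed, where 0.330% of all genes tested did. The increase of Phlpp1 in aTreg cells was smaller than in rTreg cells by 1.22 on the log2 scale, a difference of -1.22 with a 95% interval from -1.58 to -0.86 (adjusted p = 0.0304, edgeR with Benjamini-Hochberg adjustment), and -1.37 and -1.05 in replicate pairs 1 and 2. In WT cells Phlpp1 was higher in aTreg than in rTreg cells, and in Foxp1-deficient cells it was lower, so that its levels ran from WT rTreg through WT aTreg and Foxp1-deficient aTreg to Foxp1-deficient rTreg cells with no overlap between neighbours. The direction was kept in all 15 alternatives, from -1.42 to -0.998, but the call was kept in 8 of them. The adjusted p was 0.218 without the replicate block. It was 0.114 and 0.113 without replicate 1 or 2 of WT rTreg, 0.127 and 0.223 without those of Foxp1-deficient rTreg, and 0.0726 and 0.16 without those of Foxp1-deficient aTreg cells (edgeR with Benjamini-Hochberg adjustment; 2.09e-07 to 0.223 over the alternatives).

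Inpp4b had an interaction of 0.34 (95% interval 0.17 to 0.52), which means that its decrease was larger in rTreg than in aTreg cells by that amount on the log2 scale. It missed the threshold in edgeR, with an adjusted p of 0.112 after Benjamini-Hochberg adjustment, and passed with DESeq2 (0.0093) and with no filter on low counts (0.00452). Pik3cd had an interaction of -0.19 (unadjusted p = 0.0204, adjusted p = 0.274 from edgeR with Benjamini-Hochberg adjustment). For the remaining 6 genes the interaction had adjusted p-values from 0.476 to 0.989 in the same edgeR fit with Benjamini-Hochberg adjustment.

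The comparison of subsets asked how the pathway differs between activated and resting Treg cells. Between WT aTreg and WT rTreg cells, 0 of the 9 genes passed an adjusted p-value under 0.05 together with 2-fold in edgeR, limma-voom or DESeq2, where 12.3% of all genes tested did in edgeR (9.50% higher and 2.83% lower). Of the 9 genes, 5 had an unadjusted p under 0.05, and the same number passed the adjusted p-value alone, as did 31.9% of all genes. These were Pik3cd, Pik3r1, Pik3ip1 and Inpp4b, which were lower in aTreg cells, and Phlpp1, which was higher. Subsets did not overlap for 6 of the 9 genes, against 56.9% of all genes tested.

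Pik3cd was lower in WT aTreg than in WT rTreg cells by 1.52-fold (log2 fold change -0.60, 95% interval -0.72 to -0.49, adjusted p = 8.97e-05 from edgeR with Benjamini-Hochberg adjustment), and the libraries of the subsets did not overlap. The log2 fold change was -0.47 for Pik3r1 (adjusted p = 0.00139) and -0.28 for Inpp4b (adjusted p = 0.00609, both from edgeR with Benjamini-Hochberg adjustment). Pik3ip1 was lower in WT aTreg cells by 1.68-fold (log2 fold change -0.75, adjusted p = 0.00688, edgeR with Benjamini-Hochberg adjustment), with -0.93 and -0.61 in replicate pairs 1 and 2. Leaving out replicate 2 of WT aTreg cells moved it to -1.05 and past 2-fold. Without the replicate block, the adjusted p-values of Pik3ip1, Inpp4b and Pik3r1 were 0.236, 0.325 and 0.0528, while that of Pik3cd was 0.0019, each the highest over the alternatives, whose lowest lay between 6.72e-24 for Pik3cd and 1.31e-04 for Inpp4b. Phlpp1 was higher in WT aTreg cells by 1.54-fold (log2 fold change 0.63, adjusted p = 0.00447, edgeR with Benjamini-Hochberg adjustment). Intervals (95%) for Pik3cg (-0.11 to 0.18), Inpp5d (-0.13 to 0.17), Akt1 (-0.08 to 0.26) and Akt2 (-0.21 to 0.12) all lay inside 1.5-fold.

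Between Foxp1-deficient aTreg and Foxp1-deficient rTreg cells, Pik3ip1 fell past 2-fold, 1 of the 9 genes where 15.7% of all genes tested passed (4.39% lower). Its levels of 56.3 and 72.4 CPM in aTreg cells were both below the 125 and 162 CPM in rTreg cells, a decrease of 2.22-fold (log2 fold change -1.15, standard error 0.152, adjusted p = 7.38e-04 from edgeR with Benjamini-Hochberg adjustment). The difference was -1.15 and -1.16 in replicate pairs 1 and 2. Its 2-fold call was lost without replicate 1 of Foxp1-deficient rTreg cells (log2 fold change -0.98), without replicate 2 of Foxp1-deficient aTreg cells (-0.98), and without the replicate block, where the adjusted p was 0.0599 (edgeR with Benjamini-Hochberg adjustment; 2e-10 to 0.0599 over the alternatives). The sort itself separates the subsets, and Ighm, a B cell marker on the list, was at 232 CPM in Foxp1-deficient rTreg and 722 CPM in Foxp1-deficient aTreg cells, with Ms4a1 at most 4 counts in any library. Cd79b, also on the B cell list, was higher in Foxp1-deficient aTreg cells too (log2 fold change 1.74, adjusted p = 1.97e-04), whereas Cd79a had a log2 fold change of -0.66 (adjusted p = 0.070, edgeR with Benjamini-Hochberg adjustment). What part these markers had in the differences between subsets was not tested.

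In the Foxp1-deficient cells Pik3cd was 1.74-fold lower in aTreg than in rTreg cells (log2 fold change -0.80, 95% interval -0.91 to -0.69, adjusted p = 1.77e-05) and Pik3r1 was 1.24-fold lower (log2 fold change -0.30, adjusted p = 0.00795, both from edgeR with Benjamini-Hochberg adjustment). Phlpp1 was 1.51-fold lower in aTreg cells (log2 fold change -0.59, adjusted p = 0.00345), the opposite direction to WT cells, and Akt1 was 1.17-fold higher (log2 fold change 0.22, adjusted p = 0.0456, edgeR with Benjamini-Hochberg adjustment). Akt1 missed the adjusted p-value in 6 of the 15 alternatives, among them the fit without the block (adjusted p = 0.166) and that without replicate 2 of Foxp1-deficient rTreg cells (log2 fold change 0.11, adjusted p = 0.34, edgeR with Benjamini-Hochberg adjustment). Pik3r1 missed it without the block (adjusted p = 0.145), without replicate 1 of Foxp1-deficient rTreg cells (0.101) and without replicate 2 of Foxp1-deficient aTreg cells (0.0567, edgeR with Benjamini-Hochberg adjustment). These 4 genes did not reach 2-fold. With Pik3ip1, 5 of the 9 genes passed the adjusted p-value, as did 40.1% of all genes tested, and 5 of the 9 did not overlap between subsets, against 61.7% of all genes tested. Inpp4b, at 466 and 538 CPM in Foxp1-deficient rTreg and 474 and 577 CPM in Foxp1-deficient aTreg cells, had a 95% interval of -0.06 to 0.19 on the log2 scale. The comparisons share libraries with one another, so their values stand side by side and were not correlated.

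Over the 4 groups, Pik3cd was highest in WT rTreg (1176 ± 28.4 CPM) and Foxp1-deficient rTreg cells (1144 ± 27.9 CPM), whose libraries overlapped, followed without overlap by WT aTreg (773 ± 21.7 CPM) and Foxp1-deficient aTreg cells (657 ± 0.167 CPM; SD, n = 2 each). Pik3ip1 ran in the same order of means, 168 ± 57.1, 143 ± 26.3, 102 ± 49.1 and 64.3 ± 11.4 CPM (SD, n = 2 each), but every neighbour in that order overlapped. Inpp4b ran from WT rTreg (767 ± 99.1 CPM) through WT aTreg (633 ± 114 CPM) and Foxp1-deficient aTreg (526 ± 72.8 CPM) to Foxp1-deficient rTreg cells (502 ± 50.8 CPM; SD, n = 2 each), again with each neighbour overlapping. Every neighbour also overlapped for Inpp5d, whose means lay between 265 and 296 CPM.

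The genes most like each called gene over the 8 libraries were found by Pearson's r of log2 CPM, a description over libraries that share the same groups and replicate numbers. For Phlpp1 these were Galns (r = 0.982) and Cyba (r = 0.981), whose differences had the same signs and were smaller, with log2 fold changes of 0.51 and 0.43 in Foxp1-deficient rTreg cells. For Inpp4b they were Zbtb43 (r = 0.989) and Apbb1ip (r = 0.986), at -0.33 each in rTreg cells. For Pik3ip1 they were 5830417I10Rik (r = 0.992) and Gapvd1 (r = 0.990), whose log2 fold changes between Foxp1-deficient aTreg and rTreg cells were -0.36 and -0.24.

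The other genes of the pathway were followed in 6 lists of 72 genes, of which 69 could be tested. The lists are not complete for the pathway. In Foxp1-deficient rTreg cells 1 of the 69 genes rose and 4 fell, where 5.60% of all genes were called. Tec, a kinase that binds PIP3 through its PH domain, was the one that rose (log2 fold change 1.34, adjusted p = 0.00119). Inpp5f, an inositol phosphatase with a Sac domain, fell by 0.73 on the log2 scale (adjusted p = 0.00212) and Synj2, a synaptojanin lipid phosphatase, by 1.05 (adjusted p = 0.0391, edgeR with Benjamini-Hochberg adjustment). Eif4ebp1, a repressor of translation initiation downstream of AKT and mTOR, fell by 0.96 from a low level, 7.61 to 3.91 CPM (adjusted p = 0.014). Among 7 FOXO-dependent quiescence genes, Cd55, a complement regulator, fell by 2.25 on the log2 scale (adjusted p = 5.77e-04, edgeR with Benjamini-Hochberg adjustment), and the list's median log2 fold change was -0.37.

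In Foxp1-deficient aTreg cells 3 of the 69 genes rose and 5 fell, where 4.03% of all genes were called. Phlpp2, the paralog of Phlpp1 that also dephosphorylates AKT, had a log2 fold change of 0.64, a rise from 20.6 to 31.8 CPM (adjusted p = 0.0328, edgeR with Benjamini-Hochberg adjustment). Phlda3, which competes with AKT for membrane lipids, rose by 1.16 (adjusted p = 0.0155), and S1pr1, the sphingosine phosphate receptor for lymph node egress, by 0.61 (adjusted p = 0.0365, edgeR with Benjamini-Hochberg adjustment). Inpp5f fell by 0.90 (adjusted p = 0.0016), Pik3c2b, a class II PI3K, by 0.85 (adjusted p = 0.0292) and Sgk3, an AKT-related kinase, by 1.17 (adjusted p = 0.0215, edgeR with Benjamini-Hochberg adjustment). Ccr7, a homing receptor for lymph nodes, fell, with a log2 fold change of -1.56 (adjusted p = 5.98e-04, edgeR with Benjamini-Hochberg adjustment).

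In WT aTreg against WT rTreg cells 4 of the 69 genes rose and 10 fell, or 14 of 69 where 12.3% of all genes were called. Inppl1, which encodes SHIP2, the relative of Inpp5d, rose by 2.25 on the log2 scale, from 14.4 to 68.7 CPM (adjusted p = 8.09e-06), and Dapp1, an adaptor that binds PIP3 and PI(3,4)P2, rose by 1.10 (adjusted p = 2.55e-05, edgeR with Benjamini-Hochberg adjustment). Pik3ap1, the adaptor BCAP that links receptors to PI3K, had 3 and 2 counts in the WT rTreg and 74 and 91 in the WT aTreg libraries, which is at least 27.3-fold higher against a floor of 3 counts per library. Trib2, a pseudokinase that binds AKT, Rasa3, a RAS GTPase-activating protein, and Txk, a Tec family kinase, fell, with log2 fold changes of -1.34, -1.18 and -1.77 (adjusted p-values from 4.97e-05 to 2.21e-04, edgeR with Benjamini-Hochberg adjustment). S1pr1 fell by 1.74, and the 7 FOXO-dependent genes had a median log2 fold change of -1.32 with 4 of them called lower.

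Between Foxp1-deficient aTreg and rTreg cells 9 of the 69 genes rose and 9 fell, where 15.7% of all genes were called. Inppl1 (log2 fold change 2.45) and Dapp1 (1.18) rose, while Pik3r5, the p101 regulatory subunit that partners Pik3cg, fell by 1.32, from 294 to 118 CPM (adjusted p = 8.12e-05, edgeR with Benjamini-Hochberg adjustment). Sgk3, Txk, Trib2 and Ccr7 fell, with log2 fold changes of -2.82, -2.32, -1.28 and -1.87. Pik3r5 and Sgk3 were also called lower in WT aTreg than in WT rTreg cells, with log2 fold changes of -1.08 and -1.76. For the interaction, Ccr7 (-1.08, adjusted p = 0.0316) and Cd55 (2.22, adjusted p = 0.0232, edgeR with Benjamini-Hochberg adjustment) passed among the 69 genes. The counts over the lists are given beside the background of all genes, and no test of the lists was made.

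**Figure D4:**
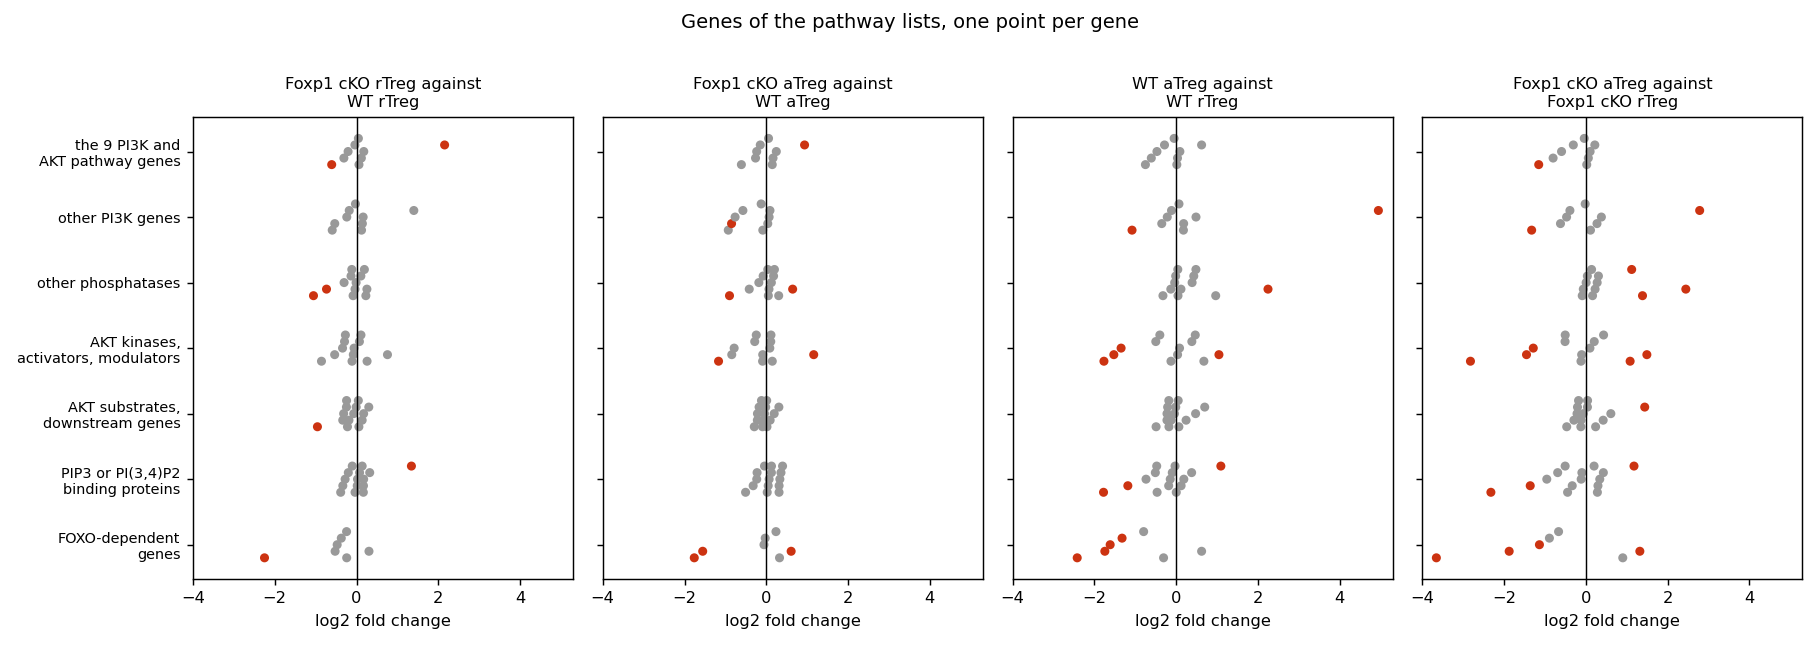
Log2 fold change of the 9 genes and of the 69 tested genes of the 6 pathway lists in the 4 comparisons, 1 point per gene, with called genes in red. Vertical offsets within a row only separate the points. In Foxp1-deficient against WT rTreg cells 5 of the 69 list genes are called, and in WT aTreg against WT rTreg cells 14 are.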

How the data were processed

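RNA was measured by sequencing in 8 libraries. Paired reads were, per the paper's methods, checked with FastQC, trimmed with trim_galore, freed of duplicates with Picard and counted with htseq-count, and the submitters' processing notes name HISAT2 2.0.5 and mm10. Removal of duplicates lowers the counts of abundant genes most. The library kit's strand setting in counting is not given in the sources used here, and Pik3ip1 shares 91 exon bases with Gm12592 on the opposite strand, which had 16 to 54 counts. The authors deposited whole-number read counts per gene, which were tested, and FPKM values, which were used only to compare genes and were not tested.

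Counts were fitted in R 4.3.3 with edgeR 4.0.16 (TMM, filterByExpr with a minimum count of 10, glmQLFit and glmQLFTest) over all 8 libraries with group means and a block for replicate number. The methods state a paired analysis, with limma-voom. Libraries of the same number deviated from their group means together (correlations from 0.389 to 0.632 across genes, which are not independent replicates). P-values were adjusted over 14540 genes by the Benjamini-Hochberg method. Standard errors are the log2 fold change divided by the root of the F statistic. Alternatives were a fit without the block, limma-voom (limma 3.58.1), DESeq2 1.42.0, size factors by median of ratios, no filter, a filter at 1 CPM in 2 libraries, robust dispersion, and leaving out each of the 8 libraries, where the lone library of a group is assumed to vary like the others. Coordinates are from GENCODE M21, of the same assembly as mm10, and promoter windows from RefSeq.

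The members, lists and motifs were chosen with earlier results of these data known. The genes named are the 9 members, up to 8 called list genes per comparison by smallest adjusted p, the 2 genes most like each called member, the markers and Foxp1. A called list gene and a marker that this rule names are not reported here, though list counts and marker sums include them.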

Additional observations from a re-analysis of the deposited data

Results flagged for a closer look

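The effect of Foxp1 loss on Phlpp1 differed between the subsets by the test of the difference itself, -1.22 on the log2 scale for aTreg minus rTreg cells (edgeR interaction term, adjusted p = 0.0304 with Benjamini-Hochberg adjustment). In rTreg cells the mean rose from 54.7 to 243 CPM and in aTreg cells from 85.1 to 161 CPM. Leaving out any library of WT rTreg, Foxp1-deficient rTreg or Foxp1-deficient aTreg cells ended the call, with adjusted p-values up to 0.223.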

How the results depend on the processing

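There were 2 libraries per group, and each member had at least 523 counts in every library. Calls at other depths were not tested. The 45 member values were recomputed under 15 alternatives. Without the replicate number as a block, the number of the 9 genes called was 1 in rTreg cells between genotypes, 0 between the Foxp1-deficient subsets and 0 for the interaction (0 also over all genes). In aTreg cells between genotypes, 2 genes were called by limma-voom, by DESeq2 and with no filter on low counts, and for the interaction 2 by DESeq2 and with no filter. When each library was left out in turn, the number called ranged from 1 to 2 in rTreg cells and from 0 to 2 in aTreg cells between genotypes, from 0 to 1 in each comparison of subsets, and from 0 to 1 for the interaction. The cause was not tested, except that leaving out a library lowers the number of samples. None of the called values changed sign. Uncalled values near 0 did so in 20 cases. The log2 fold change of Akt2 between the Foxp1-deficient subsets was 0.0025 with no filter, and the interaction of Pik3cg was 0.0019 with DESeq2, 0.0031 with median-of-ratios size factors and 0.0201 with no filter. With each library left out, the log2 fold change ranged from -0.0014 to 0.2293 for Akt1 in rTreg cells. For Akt2 it ranged from -0.0661 to 0.1468 in rTreg cells, from -0.0264 to 0.1345 in aTreg cells, from -0.139 to 0.0796 between the Foxp1-deficient subsets and from -0.0924 to 0.1185 for the interaction. For Inpp5d it ranged from -0.0302 to 0.1332 in rTreg cells and from -0.0517 to 0.1118 between the WT subsets, and for Pik3cg from -0.0215 to 0.0914 between the Foxp1-deficient subsets and from -0.0657 to 0.055 for the interaction. Over all genes, the fit without the block called 159 higher and 107 lower genes for Foxp1 loss in rTreg cells, against 421 and 393 with it, 43 and 34 for Foxp1 loss in aTreg cells, against 344 and 242, and 1097 and 245 between the WT subsets, against 1382 and 411. With no filter, 583 and 607 genes were called for rTreg and 583 and 452 for aTreg cells. With a library left out, the calls ranged from 147 to 457 higher and 67 to 404 lower in rTreg cells and from 72 to 315 and 45 to 229 in aTreg cells. For the interaction, DESeq2 called 168 and 112 genes, robust dispersion 109 and 77, and no filter 359 and 214, against 27 and 21.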

Other observations

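The replicate numbers differed in some of the 9 genes, a comparison made after the values were seen. Replicate 2 was above replicate 1 by 1.54-fold for Pik3ip1 (adjusted p = 0.00837), 1.22-fold for Inpp4b (adjusted p = 0.00415), 1.14-fold for Pik3r1 (adjusted p = 0.0277) and 1.12-fold for Inpp5d (adjusted p = 0.0487, edgeR's test of the block with Benjamini-Hochberg adjustment). These 4 of 9 genes stand beside 18.5% of all genes tested. For Pik3ip1 the ratio of replicate 2 to replicate 1 was 1.63 in WT rTreg, 1.30 in Foxp1-deficient rTreg, 2.04 in WT aTreg and 1.29 in Foxp1-deficient aTreg cells. Sex, the replicate number and any batch that goes with it cannot be told apart here. The paper mentions 2 rounds of RNA sequencing and a paired analysis to offset a batch effect. No source used here ties a round to a replicate number.

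On the FPKM scale the ratio of Phlpp1 to Pik3ip1 was 0.277 and 0.162 in WT rTreg, 1.22 and 0.966 in Foxp1-deficient rTreg, 0.919 and 0.338 in WT aTreg and 1.81 and 1.42 in aTreg cells without Foxp1. The ratio of Inpp4b to Inpp5d was 1.70 and 1.68 in WT rTreg cells and between 0.969 and 1.51 in the other 6 libraries.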
